A study of Mus musculus with 8 samples.

Results

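The PPAR-alpha target genes described here are Ehhadh, Cyp4a10, Cyp4a14, Acot1, Acot2, Pdk4, Fgf21, Vnn1 and Pex11a, 9 symbols looked up by name among the probes of an Illumina mouse expression array. They were found on 13 of its 25697 probes, which cover 8 of the 9 symbols. Cyp4a10 is listed on none of these probes. Of the 8 genes, 7 passed the detection filter and were tested among 10139 features. Vnn1 did not pass it.

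PPAR-alpha is a nuclear receptor for fatty acids that pairs with a retinoid X receptor (RXR) and binds direct repeats of a short half-site in the promoters of its target genes. In hepatocytes it is known for switching on fatty acid oxidation in peroxisomes, mitochondria and microsomes during fasting, and for the release of the hormone FGF21. Its classic targets in mouse liver include the microsomal omega-hydroxylases of the Cyp4a family, the peroxisomal enzyme Ehhadh, the acyl-CoA thioesterases and the kinase Pdk4.

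All livers came from adult male ob/ob mice, per the labels and the series title. These mice carry a mutation in the leptin gene and make no functional leptin, so every group shares that deficiency. Over 12 days the mice received leptin at 0 ng/hr (controls, 3 arrays, replicates 1 to 3), 12.5 ng/hr (2 arrays, replicates 4 and 5) or 25 ng/hr (3 arrays, replicates 6 to 8). Neither the age in weeks nor the background strain is stated in the labels, and they do not say that each array is a separate animal, so p-values measure the spread between arrays, which may in part be technical. Below, a liver means the liver sample on 1 array. One label field contradicts the grouping, since it names leptin as the agent for the 0 ng/hr arrays and none for the 25 ng/hr arrays. The titles, sources and doses give the groups used here. Group order also follows the position of the arrays on the BeadChip, so position and dose cannot be told apart.

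Between 12094 and 12783 probes per array were detected, and the mean intensity per array lay between 456.0 and 531.7. All levels below are normalised log2 signals of a probe, and a difference is a difference of mean log2 signals with its standard error (SE) from 1 limma fit over all features. A gene was called changed at a Benjamini-Hochberg adjusted p under 0.05 over all 10139 features. Levels were not compared between genes, since a probe's brightness depends on its sequence. Of the 8 hepatocyte markers 5 passed the filter, with a summed linear signal of 99869 to 110621 in controls, 109812 to 110304 at 12.5 ng/hr and 105030 to 112409 at 25 ng/hr. The probes of Alb and Tat, which hepatocytes are known to express, were not above background on any array, and Apob was not found among the probes. The summed signal of 10 macrophage and Kupffer cell markers was 3054 to 3410 in controls, 4623 to 4933 at 12.5 ng/hr and 4582 to 5418 at 25 ng/hr, without overlap between controls and leptin-treated livers. The sum of 9 stellate cell and fibroblast markers was 7519 to 12675 in controls, 11003 to 11111 at 12.5 ng/hr and 6282 to 7636 at 25 ng/hr. For 9 endothelial markers the sum was 4810 to 5495, 5284 to 5750 and 5784 to 7034 in the same order of groups. Most of it was Clec4g, with mean log2 signals of 11.71, 11.81 and 12.25. At 25 against 0 ng/hr 5 of the 9 had a log2 difference above 0, with a median of 0.01 and a range of -0.66 to 0.55. For the 3 tested cholangiocyte markers of 6 (Krt7, Sox9 and Spp1) the sum was 616 to 1179, 1594 to 1801 and 582 to 778, highest at 12.5 ng/hr. Most of this sum was Spp1, with mean log2 signals of 9.63, 10.67 and 9.20. Krt7 had its lowest mean at 12.5 ng/hr (5.36, 4.90 and 5.08), and Sox9 was detected on 2 of 8 arrays. Control replicate 1 stood apart from the other 7 arrays in markers of adipocytes and of contractile cells. In that liver Adipoq read 6.77 on the log2 scale, against 4.38 to 5.06 elsewhere, and Lep 6.94, against 4.73 to 5.40. Acta2 read 12.10, against 7.30 to 9.05, and Des 8.02, against 5.75 to 6.50. The summed signal of the 2 tested adipocyte markers of 4 reached 232 in the controls and at most 66.9 in the treated groups. The highest stellate cell and fibroblast sum in the controls, 12675, was also that of replicate 1. Several results that turn on this array are given with and without it. The part of these other cells in the results below was not tested. In whole liver, fewer cells of a type and less RNA per cell cannot be told apart.

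Promoter windows are shown for 4 members, the neighbours Acot1 and Acot2, Fgf21 and Pdk4, because the receptor acts through such sequence. Each window holds the 250 bases before the gene's start in RefSeq's table (GRCm38.p6), read 5′ to 3′ on the gene's own strand. The promoter table used here has an entry under the symbol of 6 of the 9 members, and none for Cyp4a10, Cyp4a14 or Vnn1. Capitals mark the stretch that best matches the letters AGGTCANAGGTCA, the direct repeat with 1 spacer that PPAR-alpha and RXR bind, searched on both strands and scored over its 12 fixed letters. Where several stretches matched equally well, as in Pdk4, only the first found is marked.
Acot1 (chr12:84009252-84009501, + strand): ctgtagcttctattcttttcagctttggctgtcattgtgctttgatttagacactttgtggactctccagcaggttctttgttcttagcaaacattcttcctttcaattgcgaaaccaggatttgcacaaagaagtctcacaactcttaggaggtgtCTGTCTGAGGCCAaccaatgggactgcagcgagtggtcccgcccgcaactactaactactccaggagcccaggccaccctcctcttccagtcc
Acot2 (chr12:83987611-83987860, + strand): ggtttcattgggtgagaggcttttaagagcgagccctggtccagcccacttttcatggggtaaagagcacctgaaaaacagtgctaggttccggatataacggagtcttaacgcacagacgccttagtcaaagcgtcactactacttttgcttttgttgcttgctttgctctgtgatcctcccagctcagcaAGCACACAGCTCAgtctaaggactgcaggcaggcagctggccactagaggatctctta
Fgf21 (chr7:45615491-45615740, - strand): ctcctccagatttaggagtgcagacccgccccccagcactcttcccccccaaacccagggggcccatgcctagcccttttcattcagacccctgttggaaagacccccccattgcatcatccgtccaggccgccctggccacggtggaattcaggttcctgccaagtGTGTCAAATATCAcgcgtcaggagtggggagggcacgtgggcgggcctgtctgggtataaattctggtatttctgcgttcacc
Pdk4 (chr6:5496279-5496528, - strand): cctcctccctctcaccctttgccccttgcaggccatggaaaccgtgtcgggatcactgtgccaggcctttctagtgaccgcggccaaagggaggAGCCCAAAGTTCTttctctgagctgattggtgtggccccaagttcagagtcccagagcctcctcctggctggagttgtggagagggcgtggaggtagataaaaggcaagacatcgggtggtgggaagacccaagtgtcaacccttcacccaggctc

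The best match held 9 of 12 letters in Acot2 and 8 of 12 in Acot1, Fgf21, Pdk4 and Ehhadh. Pex11a had a best match of 7 of 12 letters. Such partial matches are common. At least 8 letters matched in 74.49% of all 32851 promoter windows of this length, and at least 9 in 21.29%. The full repeat stood in 11 windows (0.033%), none of them a member's. The half-site AGGTCA itself was in 14.02% of all windows and in none of the 6 of the members. Fgf21 alone of the 6 held the letters TATAAA on its own strand, which 7.59% of all windows do. These are matches of letters only, within these windows.

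None of the 7 tested members was called at either leptin dose. At 25 against 0 ng/hr the count was 0 of 7 members, beside 0.888% of all features (90, of which 63, or 0.621%, were higher and 27, or 0.266%, lower). For 12.5 against 0 ng/hr it was 0 of 7 beside 0% of all features. Between the doses, 25 against 12.5 ng/hr, it was 0 of 7 beside 0.424% (43 features). For the mean of both doses against 0 ng/hr it was 0 of 7 beside 0%. With so few features called in all, these counts do not set the members apart. At an unadjusted p under 0.05, 2 of 7 members passed at 25 against 0 ng/hr (Cyp4a14 and Acot1), beside 17.1% of all features. The same threshold passed 1 member at 12.5 against 0 ng/hr (Fgf21, 11.5% of features), 2 between the doses (Acot2 and Fgf21, 13.4%) and 1 for the mean of both doses (Cyp4a14, 13.8%).

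**Figure D1:**
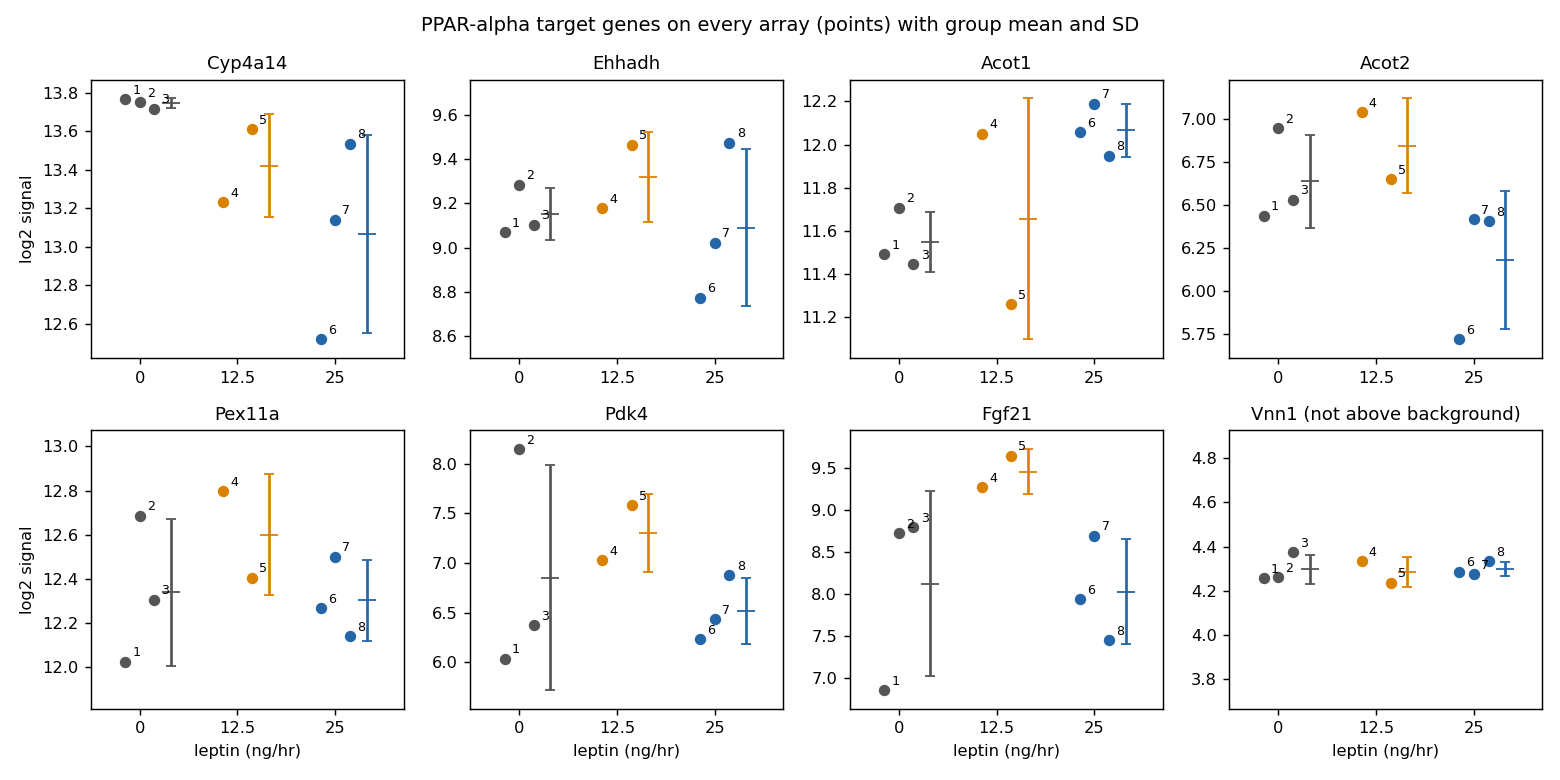
Log2 signal of the 7 tested PPAR-alpha target genes and of Vnn1, which was not above background (vertical axis, its own range in each panel) by leptin dose in ng/hr, with 1 numbered point per array and the group mean with SD beside the points. Cyp4a14 lies lower in all 5 leptin-treated livers than in the 3 controls, Acot1 is highest at 25 ng/hr apart from replicate 4, and Fgf21 is highest in the 2 livers at 12.5 ng/hr.

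Cyp4a14 is a microsomal cytochrome P450 that hydroxylates fatty acids at their omega end, and in mouse liver it is among the genes most responsive to PPAR-alpha agonists. Its log2 signal was 13.77, 13.75 and 13.72 in the controls, 13.23 and 13.61 at 12.5 ng/hr, and 12.52, 13.14 and 13.54 at 25 ng/hr. All 5 leptin-treated livers lay below all 3 controls, and the controls differed little among themselves while the livers at 25 ng/hr were widely spread. The group means were 13.75 ± 0.03 (SD, n = 3), 13.42 ± 0.27 (n = 2) and 13.07 ± 0.51 (n = 3). At 25 against 0 ng/hr the log2 difference was -0.68 (SE 0.23, 95% interval -1.19 to -0.17), or 1.60-fold lower, with a limma adjusted p of 0.184. The size turned on single livers at 25 ng/hr, since it was -0.40 without replicate 6 and -0.91 without replicate 8. For the lower dose against the controls the log2 difference was -0.32 (SE 0.25, adjusted p = 0.682), and for the mean of both doses it was -0.50 (SE 0.20, adjusted p = 0.322). Among all features, 4.28% were lower in every leptin-treated liver than in every control. No member was higher in every leptin-treated liver, as were 4.48% of all features. Neither dose difference passed the test across all features.

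Ehhadh encodes the peroxisomal bifunctional enzyme, which carries out the middle steps of beta-oxidation in peroxisomes. Its log2 signal was 9.07, 9.29 and 9.10 in the controls, 9.18 and 9.47 at 12.5 ng/hr, and 8.77, 9.02 and 9.47 at 25 ng/hr. The 3 groups overlapped, and the lowest and 1 of the 2 highest values were both at 25 ng/hr. The log2 difference at 25 against 0 ng/hr was -0.06 (SE 0.17, 95% interval -0.46 to 0.33, adjusted p = 0.886). At 12.5 against 0 ng/hr it was 0.17 (SE 0.20, adjusted p = 0.794). The same 3 livers at 25 ng/hr stood in the same order for Ehhadh and Cyp4a14, lowest in replicate 6 and highest in replicate 8.

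Pex11a encodes a peroxisomal membrane protein that takes part in the elongation and division of peroxisomes. Its brightest probe read 12.03, 12.69 and 12.31 on the log2 scale in the controls, 12.80 and 12.41 at 12.5 ng/hr, and 12.27, 12.50 and 12.14 at 25 ng/hr. The groups overlapped. The log2 difference was -0.04 (SE 0.18, 95% interval -0.45 to 0.38, adjusted p = 0.944) at 25 against 0 ng/hr and 0.26 (SE 0.21, adjusted p = 0.682) at 12.5 against 0 ng/hr. The other 2 Pex11a probes followed the brightest one over the 8 arrays, with a Pearson r of 0.87 and 0.96. At the lower dose their log2 differences from the controls were 0.42 (SE 0.20) and 0.48 (SE 0.25). Control replicate 1, which stood apart in the markers above, had the lowest value of the brightest probe. Without it the log2 differences of that probe were -0.19 at 25 and 0.10 at 12.5 against 0 ng/hr.

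Acot1 and Acot2 are neighbouring genes on chromosome 12 that encode near-identical thioesterases, Acot1 in the cytosol and Acot2 in mitochondria, which split acyl-CoA into free fatty acid and CoA. Probes of such close paralogs can bind each other's transcripts, so the assignment of a signal to either gene is uncertain. The brighter Acot1 probe read 11.49, 11.71 and 11.45 on the log2 scale in the controls, 12.05 and 11.26 at 12.5 ng/hr, and 12.06, 12.19 and 11.95 at 25 ng/hr. The 3 livers at 25 ng/hr lay above all controls, and the 2 at 12.5 ng/hr stood on both sides of the controls. The log2 difference at 25 against 0 ng/hr was 0.52 (SE 0.19, 95% interval 0.09 to 0.94), or 1.43-fold higher, with an adjusted p of 0.210. Acot1 was 1 of the 11.2% of all features whose 25 ng/hr values all lay above the controls. The second Acot1 probe had a log2 difference of 0.45 (SE 0.26), and its groups overlapped. Both Acot1 probes varied together over the 8 arrays (r = 0.94).

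The brighter Acot2 probe read 6.44, 6.95 and 6.53 on the log2 scale in the controls, 7.04 and 6.65 at 12.5 ng/hr, and 5.72, 6.42 and 6.41 at 25 ng/hr. Every liver at 25 ng/hr lay below the controls and below both livers at 12.5 ng/hr. The log2 difference was -0.46 (SE 0.22, 95% interval -0.95 to 0.04, adjusted p = 0.328) at 25 against 0 ng/hr and -0.66 (SE 0.24, 95% interval -1.21 to -0.11, adjusted p = 0.289) at 25 against 12.5 ng/hr. With Cyp4a14 it was 1 of 2 members lower without overlap at 25 against 0 ng/hr, as were 11.7% of all features. A second Acot2 probe gave the opposite order. It read 5.16, 4.95 and 5.06 in the controls, 5.06 and 4.89 at 12.5 ng/hr, and 5.67, 5.36 and 5.31 at 25 ng/hr. After normalisation its 25 ng/hr values were thus the highest. This probe was dim, with unscaled intensities of 74.8 to 92.0 beside array medians of 66.9 to 75.4 over all probes. Its detection p reached 0.030. Before normalisation its intensities at 25 ng/hr (76.7 to 92.0) overlapped those of the controls (74.8 to 84.4). Its log2 difference at 25 against 0 ng/hr was 0.39 (SE 0.13, adjusted p = 0.168 in a fit over all detected probes). Over the 8 arrays this second Acot2 probe ran against the brighter Acot2 probe (r = -0.86, Spearman rho -0.81) and with the brighter Acot1 probe (r = 0.68, rho 0.81). The third Acot2 probe was detected on 1 array. The direction for Acot2 thus depended on the probe, and which transcript each probe reads was not tested.

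**Figure D2:**
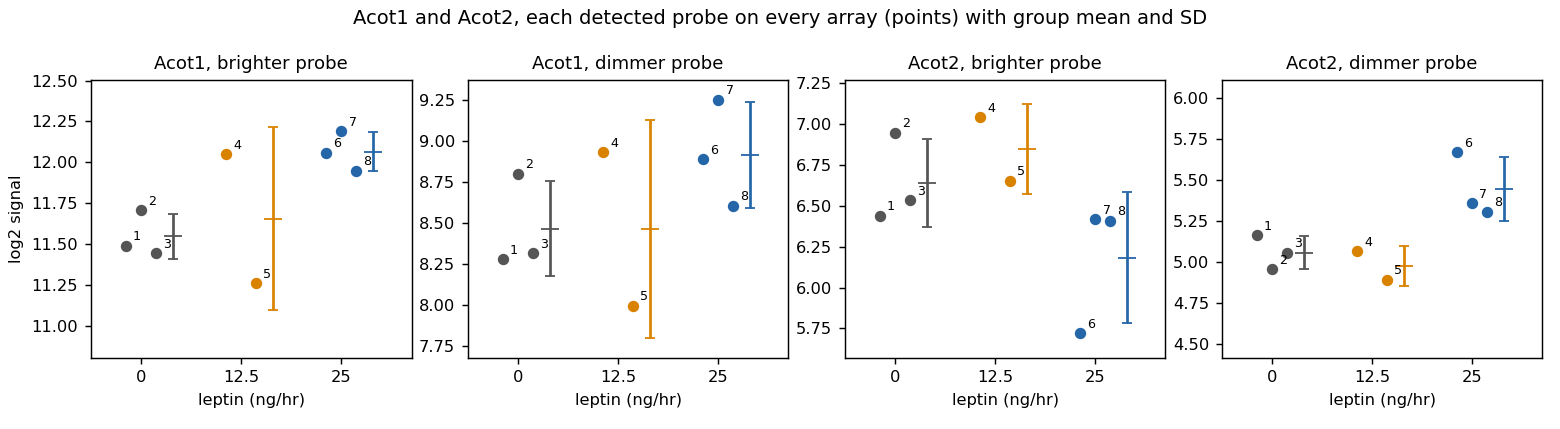
Log2 signal of the detected probes of Acot1 and Acot2 (vertical axis, its own range in each panel) by leptin dose in ng/hr, with numbered arrays as points and group means with SD. Both Acot1 probes have higher means at 25 ng/hr, while the brighter Acot2 probe is lowest there and the dimmer Acot2 probe is highest there.

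Pdk4 is a mitochondrial kinase that inactivates pyruvate dehydrogenase and so spares glucose when fatty acids are burned. Its log2 signal was 6.04, 8.15 and 6.37 in the controls, 7.03 and 7.58 at 12.5 ng/hr, and 6.23, 6.43 and 6.88 at 25 ng/hr. Control replicate 2 held the highest value of all 8 livers and another control the lowest, so the control group spanned both treated groups. All 3 livers at 25 ng/hr lay below both at 12.5 ng/hr. The log2 difference was -0.34 (SE 0.48, 95% interval -1.42 to 0.74, adjusted p = 0.770) at 25 against 0 ng/hr. It turned to 0.31 without control replicate 2, and was -0.75 without control replicate 1, the lowest of the 8 livers. At 12.5 against 0 ng/hr the log2 difference was 0.45 (SE 0.53, adjusted p = 0.797), and 0.04 without control replicate 1. Between the doses it was -0.79 (SE 0.53, adjusted p = 0.567).

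Fgf21 is a hormone that the liver secretes in fasting and that signals through beta-klotho (Klb) and FGF receptors. Its log2 signal was 6.85, 8.72 and 8.79 in the controls, 9.26 and 9.64 at 12.5 ng/hr, and 7.93, 8.69 and 7.45 at 25 ng/hr. Both livers at 12.5 ng/hr lay above all 6 others, and the 25 ng/hr values lay within the control range. The means were 8.12 ± 1.10 (SD, n = 3), 9.45 ± 0.27 (n = 2) and 8.02 ± 0.63 (n = 3). At 12.5 against 0 ng/hr the log2 difference was 1.33 (SE 0.56, 95% interval 0.06 to 2.60), or 2.52-fold higher, with an adjusted p of 0.410. It was 0.70 without control replicate 1, the lowest of all 8 livers and the one that stood apart in adipocyte and contractile markers, and 1.66 without replicate 3. At 25 against 12.5 ng/hr it was -1.43 (SE 0.56, 95% interval -2.70 to -0.16), or 2.69-fold lower, with an adjusted p of 0.313. At 25 against 0 ng/hr it was -0.10 (SE 0.50, 95% interval -1.24 to 1.04, adjusted p = 0.943), and -0.73 without control replicate 1. In the authors' deposited table the ratio of group mean intensities for Fgf21 was 2.07 at 12.5 over 0 ng/hr and 0.416 at 25 over 12.5 ng/hr. None of the 3 comparisons of Fgf21 passed the test across all features.

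Vnn1, a pantetheinase that releases cysteamine from pantetheine, gave no measurement. Its only probe was not above background on any of the 8 arrays, at intensities of 48.9 to 57.6. The probes of some genes that liver is known to express behaved alike, among them Fabp1 (49.3 to 58.7), Cpt1a (49.0 to 64.6), Alb (54.9 to 73.7) and Cd36 (54.8 to 64.5). A dim probe on this array therefore says nothing of whether the gene is expressed.

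**Figure D3:**
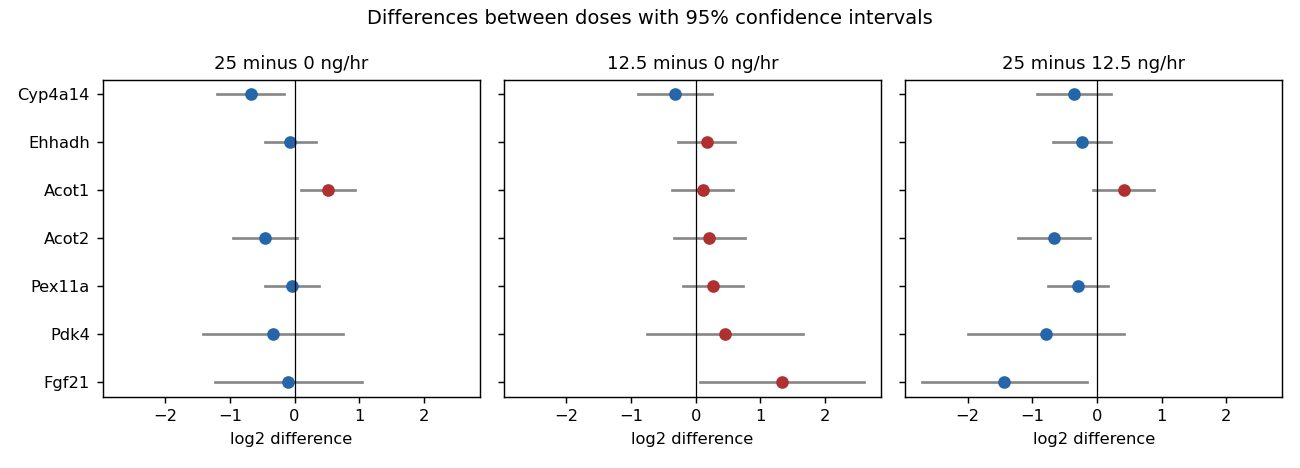
Log2 differences of the 7 tested members (horizontal axis) at 25 against 0, 12.5 against 0 and 25 against 12.5 ng/hr, with points for the estimate and lines for the 95% confidence interval of the limma fit. The mean of both doses is not drawn. For Cyp4a14 and Acot1 at 25 against 0 ng/hr, for Fgf21 at 12.5 against 0 ng/hr and for Acot2 and Fgf21 between the doses the interval leaves out 0 before adjustment, and no adjusted p passed.

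The members' differences had no common direction across the comparisons. At 25 against 0 ng/hr 1 of 7 log2 differences was above 0 (Acot1), and the median was -0.10, beside 49.4% of all features above 0 with a median of 0.00. For the lower dose 6 of 7 were above 0, with a median of 0.21, beside 50.6% of all features. Cyp4a14 was the exception there. Between the doses, 1 of 7 was above 0 and the median was -0.36, beside 50% of all features. For the mean of both doses 5 of 7 were above 0, beside 50.2% of all features. These comparisons share samples. The 12.5 ng/hr livers enter both of the last 2 counts, with opposite sign. Groups did not overlap for 1 member higher (Fgf21, 14.9% of all features) and 1 lower (Cyp4a14, 13.9%) at 12.5 against 0 ng/hr. Between the doses 3 members were lower without overlap (Acot2, Pdk4 and Fgf21), as were 16.9% of all features, and none was higher, as were 14.2%.

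Spread within groups was large for these genes. The residual SD of the fit was 0.81 for Fgf21 and 0.77 for Pdk4 on the log2 scale, higher than for 99.5% and 99.4% of all features. It was 0.35 for Cyp4a14, higher than for 94.6%, and 0.25 for Ehhadh, the lowest of the 7 and still higher than for 83.7% of all features. Over the 8 arrays, which share groups and normalisation, the 21 pairs of members had a Pearson r between -0.70 (Cyp4a14 with Acot1) and 0.77 (Fgf21 with Pex11a), with a median of 0.36. Of these pairs, 14 had an r above 0. Cyp4a14 and Ehhadh had an r of 0.67 over all arrays and 0.92 for the deviations from their group means. The mean standardised level of the 7 members was lowest in replicate 6 at 25 ng/hr (-0.96) and control replicate 1 (-0.68), and highest in control replicate 2 (0.77) and replicate 4 at 12.5 ng/hr (0.63). The difference between control replicates 1 and 2 was thus as wide as most of the range over all 8 livers.

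Among all other tested features, those most like the members' mean standardised level over the 8 arrays were Siah1a (r = 0.945), Tmem229b (0.945), Mesp1 (0.938), Dhps (0.937) and Tnfaip2 (0.934). The most opposed were Mef2b (r = -0.962), Bcl2l1 (-0.960), Gm4956 (-0.959) and Gspt1 (-0.955). With 10139 features and 8 arrays these values are a description only, and no other PPAR-alpha target stood among the 5 nearest.

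A wider list of PPAR-alpha target genes held 56 entries, of which 51 had a probe and 43 were tested. None of the 43 was called in any of the 4 comparisons. The shares of all features called were 0.888% at 25 against 0 ng/hr, 0.424% between the doses and 0% in the other comparisons. At 25 against 0 ng/hr 18 of 43 had a log2 difference above 0 and the median was -0.07. The unadjusted p was under 0.05 for 12 of them, 3 higher and 9 lower, beside 17.1% of all features. Angptl4, a secreted inhibitor of lipoprotein lipase, read 11.22, 11.69 and 11.57 in the controls, 11.38 and 11.38 at 12.5 ng/hr, and 12.09, 11.96 and 11.98 at 25 ng/hr, where it was highest. Its log2 difference was 0.52 (SE 0.13, adjusted p = 0.0986) at 25 against 0 ng/hr and 0.63 (SE 0.14, adjusted p = 0.120) at 25 against 12.5 ng/hr. Under some alternative processing Angptl4 passed the threshold, with adjusted p between 0.0358 and 0.0489 at 25 against 0 ng/hr in the 3 cases where it did. In the other 14 alternatives it did not pass, with a limma adjusted p of up to 0.267. Leaving out each array in turn, its log2 difference ran from 0.39, without control replicate 1, to 0.62.

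Targets with lower signals at 25 ng/hr stood beside Cyp4a14. Cyp4a31, a member of the same family and cluster, read 11.45, 11.19 and 11.28 in the controls, 10.67 and 10.72 at 12.5 ng/hr, and 9.98, 10.43 and 10.97 at 25 ng/hr. As with Cyp4a14, all 5 leptin-treated livers lay below all controls and replicate 6 was lowest. Its log2 difference at 25 against 0 ng/hr was -0.85 (SE 0.22, adjusted p = 0.109), and cross-binding between probes of this family is possible. The log2 difference was -0.84 (SE 0.26, adjusted p = 0.164) for Vldlr, a lipoprotein receptor, and -0.47 (SE 0.12, adjusted p = 0.117) for Retsat, the retinol saturase. For the carnitine transporter Slc22a5 the log2 difference was 0.40 (SE 0.10, adjusted p = 0.103). Leaving out replicate 8 brought Cyp4a31 (-1.10, adjusted p = 0.0240) and Vldlr (-1.14, adjusted p = 0.0405) past the threshold. With other arrays left out in turn, neither passed, and the log2 difference shrank to as little as -0.60 for Cyp4a31 and -0.53 for Vldlr.

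At 12.5 against 0 ng/hr the targets with small p-values included Acadl, a mitochondrial long-chain acyl-CoA dehydrogenase, with a log2 difference of 0.37 (SE 0.10, adjusted p = 0.238), and the acyltransferase Mogat1 with -0.51 (SE 0.15, adjusted p = 0.270). Abcd2, a peroxisomal fatty acid transporter, read 6.96, 6.56 and 7.04 in the controls, 7.32 and 7.34 at 12.5 ng/hr, and 5.44, 6.50 and 6.34 at 25 ng/hr. As with the brighter Acot2 probe, its mean was highest at 12.5 ng/hr and lowest at 25 ng/hr, with a log2 difference between the doses of -1.24 (SE 0.29, adjusted p = 0.123).

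**Figure D4:**
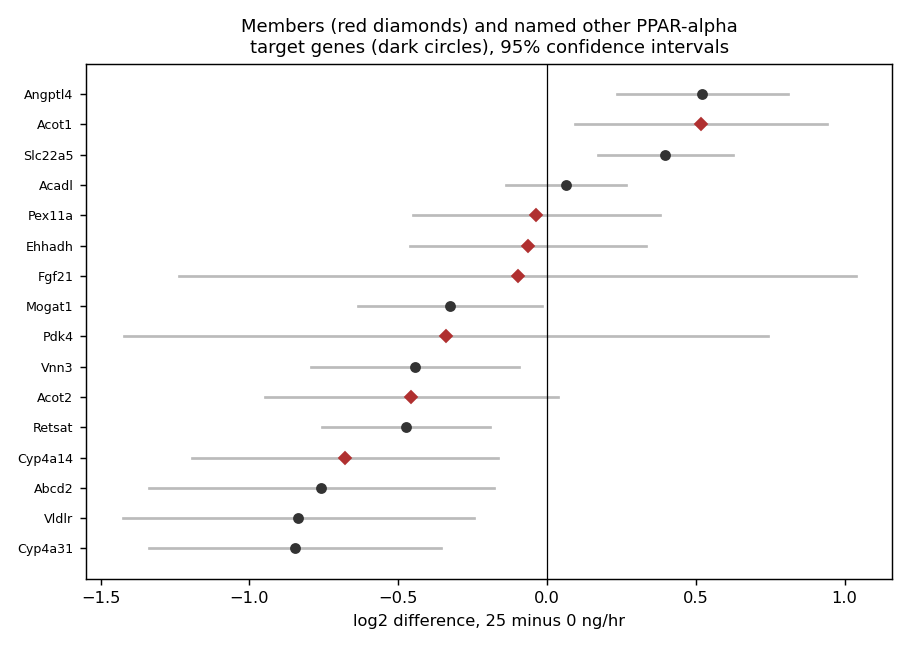
Log2 difference at 25 against 0 ng/hr (horizontal axis) of the 7 tested members (red diamonds) and the 9 other PPAR-alpha target genes named in the text (dark circles), ordered by size, with 95% confidence intervals as lines. The members run from Cyp4a14 at -0.68 to Acot1 at 0.52, between Cyp4a31 at -0.85 and Angptl4, also at 0.52.

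Of the receptor and its partners (18 entries, 17 with a probe), 0 of 15 tested genes were called in each of the 4 comparisons. At most 0.888% of all features were called in any comparison, so this count does not set these genes apart. Ppara itself read 7.14, 7.38 and 6.99 in the controls, 7.47 and 7.08 at 12.5 ng/hr, and 7.24, 7.25 and 7.23 at 25 ng/hr. Its log2 difference at 25 against 0 ng/hr was 0.07 (adjusted p = 0.840), and its groups overlapped. For Rxra, the partner receptor, the log2 difference was 0.09 (adjusted p = 0.800). Ppargc1a, a coactivator that fasting induces in liver, read 7.80, 6.72 and 7.70 in the controls, 6.92 and 6.73 at 12.5 ng/hr, and 6.79, 6.03 and 7.49 at 25 ng/hr, a log2 difference of -0.64 (SE 0.37, adjusted p = 0.427) at 25 against 0 ng/hr. Lpin1, a phosphatidate phosphatase that also acts as a coactivator of PPAR-alpha, differed by 0.82 on the log2 scale (SE 0.32, adjusted p = 0.235). Leaving out each array in turn, the Lpin1 difference ran from 0.55, without control replicate 1, to 1.13.

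For the receptors of FGF21, 4 of 5 genes were tested and none was called, beside at most 0.888% of all features in any comparison. At 25 against 0 ng/hr the log2 difference was 0.41 (SE 0.13, adjusted p = 0.175) for Fgfr2 and -0.16 (adjusted p = 0.618) for Klb, the co-receptor. The Fgfr2 probe was dim, beside array medians of 66.9 to 75.4. Before normalisation its intensities at 25 ng/hr (90.2 to 106.8) overlapped those of the controls (82.3 to 98.5). The probes of Fgfr1 did not pass the detection filter.

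Of 19 paralogs of the members, 11 were tested and 1 was called at 25 against 0 ng/hr, beside 0.888% of all features. None was called in the other comparisons. Cyp4f14, a fatty acid and leukotriene B4 omega-hydroxylase of the neighbouring Cyp4f subfamily, rose at 25 ng/hr. It read 11.34, 11.07 and 11.40 in the controls, 11.79 and 11.34 at 12.5 ng/hr, and 12.62, 12.60 and 12.33 at 25 ng/hr, all 3 above every other liver. Its log2 difference at 25 against 0 ng/hr was 1.25 (SE 0.15, adjusted p = 0.0215), or 2.37-fold higher, while Cyp4a14 was 1.60-fold lower without passing the test. The call for Cyp4f14 was lost without replicate 2, 3, 6 or 7 in turn, with adjusted p between 0.0554 and 0.0931 and log2 differences from 1.14 to 1.32. Vnn3, the paralog of Vnn1, read 10.77, 11.00 and 10.65 in the controls, 10.99 and 11.00 at 12.5 ng/hr, and 10.11, 10.30 and 10.67 at 25 ng/hr. Its log2 difference was -0.44 (SE 0.15, adjusted p = 0.196) at 25 against 0 ng/hr and -0.64 (SE 0.17, adjusted p = 0.170) at 25 against 12.5 ng/hr. A probe whose name fits both Cyp4a12a and Cyp4a12b, singled out after its values were seen, ranged from 8.02 to 11.16 in the controls alone. Its log2 difference at 25 against 0 ng/hr was 1.12 (SE 0.72, adjusted p = 0.474).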

How the data were processed

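Liver RNA of 8 labelled samples was measured on Illumina arrays, 1 array each. Livers were flash frozen and their RNA isolated by Trizol, per the labels' protocols, then turned into biotin-labelled cRNA. Neither the scanner software nor a build is given in the sources used here. For each probe and array, the first deposited table gives an unscaled intensity with its detection p-value. In the second deposited table the authors multiplied each array's intensities by 1 factor (0.9272 to 1.0811), which gave all arrays a mean of 492.96, and listed group mean intensities and the ratio of these means. The header names 3 arrays for the middle group, while the deposited mean there equals that of the 2 arrays labelled 12.5 ng/hr. These scaled intensities recur unchanged in the series matrix (linear, uncentred, not ratios), and their column medians were 68.4 to 74.2.

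Unscaled intensities were background-corrected with the detection p-values, quantile-normalised and put on the log2 scale with neqc (offset 16) of limma 3.58.1 in R 4.3.3. Features were kept when detected (p under 0.05) on 2 or more arrays, with each gene represented by its brightest probe on average. One limma fit took all 8 arrays and 3 group means (lmFit, eBayes) and 4 contrasts, with Benjamini-Hochberg adjustment over 10139 features at a threshold of 0.05. Every adjusted p is from this fit unless stated. Symbols came from the deposited annotation, updated by name through RefSeq's table of GRCm38.p6. A current symbol was not found for 889 probes, which kept the deposited name. The number of arrays limits the precision.

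The members, the other gene lists and the tests were chosen with earlier results of these data known. The text names every member, then Ppara, Rxra and Ppargc1a, and from each other list the called genes and otherwise some of the 6 with the smallest p per contrast. Some results that this rule selects are not reported here. Likeness was the Pearson r over 8 arrays with the members' mean standardised log2 signal, and the 5 highest and 4 of the lowest are named. Alternatives changed the background correction, normalisation, probe filter, probe choice, prior, array weights and the arrays included. The fit was also run on simulated data that follow its own assumptions, which cannot show how it does where those fail. Figures were drawn with matplotlib 3.10.9 in Python 3.11.15.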

Additional observations from a re-analysis of the deposited data

Results flagged for a closer look

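The brighter Acot2 probe stood on opposite sides of the control mean at the 2 doses. Both livers at 12.5 ng/hr lay above that mean of 6.64, 1 of them within the control range, and all 3 livers at 25 ng/hr lay below it. The test of the difference between the doses gave a log2 difference of -0.664 (SE 0.24, limma adjusted p = 0.289), which did not pass the threshold. The second detected Acot2 probe, which was dim, went the other way, with a log2 difference between the doses of 0.47 (SE 0.14, adjusted p = 0.220 in a fit over all detected probes). Dixon's test for a single outlying value was not applied, since no group held more than 3 arrays.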

How the results depend on the processing

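The count of members called stayed at 0 in all 4 comparisons under every alternative run. For the 28 member differences, 449 of 469 alternative values kept their direction and 20 reversed, and none passed the threshold. The lowest adjusted p was 0.0697, for Cyp4a14 at 25 against 0 ng/hr without replicate 8. Reversed values outside the left-out arrays were 0.016 for Pex11a with array weights and -0.023 for Ppara with median scaling, both at 25 against 0 ng/hr, and -0.0071 for Pdk4 in the mean of both doses with the authors' scaled intensities. Leaving out each replicate in turn, the log2 difference at 25 against 0 ng/hr ran from -0.26 to 0.10 for Ehhadh, -0.75 to 0.31 for Pdk4, -0.73 to 0.23 for Fgf21, -0.19 to 0.14 for Pex11a, -0.022 to 0.17 for Ppara and -0.0046 to 0.21 for Rxra. At 12.5 against 0 ng/hr it ran from -0.29 to 0.50 for Acot1. For the mean of both doses it ran from -0.044 to 0.13 for Ehhadh, -0.22 to 0.029 for Acot2, -0.35 to 0.70 for Pdk4, -0.018 to 0.95 for Fgf21 and -0.044 to 0.29 for Pex11a. Leaving out control replicate 1 gave the lowest of these values for Pdk4, Fgf21 and Pex11a, and the -0.0046 for Rxra. Of the other PPAR-alpha targets, none was called in the fit reported. At 25 against 0 ng/hr the count was 1 with no background correction, 2 with the authors' scaled intensities, 1 with a trended prior, and 0 to 2 when each replicate was left out. At 25 against 12.5 ng/hr it was 2 with the authors' scaled intensities, where Angptl4 (0.62, adjusted p = 0.0438) and Abcd2 (-0.91, adjusted p = 0.0396) passed. For the mean of both doses it was 0 to 1 when each replicate was left out. The cause of these shifts was not tested. The count of all features called ranged over the alternatives from 0 to 206 at 25 against 0 ng/hr, 0 to 10 at 12.5 against 0 ng/hr, 0 to 110 between the doses and 0 to 81 for the mean of both doses. No paired analysis was possible because the replicate numbers run from 1 to 8 and no number occurs in more than 1 group. For the mean of both doses, a fit on only the groups compared was not run because that comparison uses all groups.

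With 2 or 3 arrays per group, the pairwise differences of Fgf21 and Pdk4 had standard errors of 0.48 to 0.56 on the log2 scale. Vnn1 and Cyp4a10 have no usable value, and signals of near-identical paralogs were not separated by sequence.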
